A study of Mus musculus with 11 samples.

Results

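The fibrillar collagen chains were the 10 genes Col1a1, Col1a2, Col3a1, Col5a1, Col5a2, Col5a3, Col11a1, Col11a2, Col24a1 and Col27a1, chosen by symbol from the 47643 gene symbols with an RPKM (reads per kilobase of gene, scaled to the mapped reads of the library) in 11 RNA-seq libraries. Col2a1, the chain of type II, was not among the 10 and was at most 0.304 RPKM in any library. Fibroblasts were sorted from normal back skin (NS) and from excisional wounds at day 5 after injury (5dw) as live cells with CD140a, the receptor encoded by Pdgfra, and without CD45 and CD11b, among other leukocyte markers, to which the labels, but not the study's methods, add CD3. They came from mice with an INHBA transgene expressed in keratinocytes (Act) and from wild-type littermates (WT). All animals were 9 to 12 weeks old and had the same mixed background, 50% CD-1 and 50% C57Bl/6. There were 3 libraries each of WT NS, Act NS and WT 5dw and 2 of Act 5dw, numbered 1 and 3. Each library held RNA pooled from 3 animals, so that single animals cannot be read from it. The p-values measure the spread between these pools. Keratinocytes, the cells that carry the active transgene, are not the cells of the sort gate.

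Fibrillar collagens are the rope-like proteins that give skin its tensile strength. 3 chains wind into a triple helix, the ends (propeptides) are cut off outside the cell, and the molecules line up into cross-linked fibrils. Type I, built mostly from Col1a1 and Col1a2 chains together, makes up most of the dermis, and type III, built from Col3a1 alone, is abundant in young granulation tissue. Type V (Col5a1, Col5a2, Col5a3) starts and limits the width of these fibrils, type XI (Col11a1, Col11a2) does so mainly in cartilage, and types XXIV and XXVII (Col24a1, Col27a1) are minor chains known best from developing bone and cartilage.

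All 10 chains lie on the GRCm38 assembly, here with the gene spans of GENCODE M21. Col1a1 is on chromosome 11 (94936224 to 94953042), Col1a2 on chromosome 6 (4504814 to 4541544), Col5a1 on chromosome 2 (27886425 to 28039514), Col5a3 on chromosome 9 (20770050 to 20815067), Col11a2 on chromosome 17 (34039437 to 34066685) and Col27a1 on chromosome 4 (63214004 to 63334991). Col11a1 (114030540 to 114220718) and Col24a1 (145292472 to 145552011) are both on chromosome 3, 31071753 bp apart. Col3a1 (45311538 to 45349706) and Col5a2 (45374321 to 45503282) are neighbours on chromosome 1 that point towards each other, with 24614 bp and no annotated gene between them. Small RNAs or opposite-strand transcripts shared at most 1.44% of the exon length of a chain (Gm47302, a miRNA gene within Col3a1).

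The sequence before the start of a collagen gene is shown because 8 of the 10 chains moved together after wounding and 2 did not. RefSeq (GRCm38.p6) gave a start for 8 chains, and Col1a1 and Col5a2 were not matched. For Col1a2 and Col27a1 the RefSeq start lies within the GENCODE M21 span given above. The bases before that start therefore lie inside the span too. For 4 of the 8, the 250 bases before the start are printed 5′ to 3′ on the gene's strand: Col1a2 and Col3a1 as chains of the abundant types, Col24a1 as the chain with the largest fold change, and Col11a1 as a chain that was not called. Capitals mark CCAAT (the CCAAT box, also as its reverse complement ATTGG) and TATAAA (the TATA box, either strand).
Col1a2, chr6:4505368-4505617, plus strand: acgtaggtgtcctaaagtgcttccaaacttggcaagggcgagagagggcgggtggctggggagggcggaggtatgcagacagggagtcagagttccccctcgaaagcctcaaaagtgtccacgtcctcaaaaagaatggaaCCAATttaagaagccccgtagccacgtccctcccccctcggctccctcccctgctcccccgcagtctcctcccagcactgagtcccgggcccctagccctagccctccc
Col3a1, chr1:45311288-45311537, plus strand: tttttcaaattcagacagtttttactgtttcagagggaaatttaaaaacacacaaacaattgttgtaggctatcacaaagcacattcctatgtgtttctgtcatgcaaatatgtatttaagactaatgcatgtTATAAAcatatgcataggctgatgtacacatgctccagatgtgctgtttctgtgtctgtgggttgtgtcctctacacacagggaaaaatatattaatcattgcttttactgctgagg
Col11a1, chr3:114030290-114030539, plus strand: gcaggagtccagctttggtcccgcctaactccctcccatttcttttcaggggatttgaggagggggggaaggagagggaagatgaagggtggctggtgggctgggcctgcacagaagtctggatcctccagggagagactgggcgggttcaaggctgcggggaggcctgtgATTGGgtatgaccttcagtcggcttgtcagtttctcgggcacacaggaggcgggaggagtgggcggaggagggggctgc
Col24a1, chr3:145292222-145292471, plus strand: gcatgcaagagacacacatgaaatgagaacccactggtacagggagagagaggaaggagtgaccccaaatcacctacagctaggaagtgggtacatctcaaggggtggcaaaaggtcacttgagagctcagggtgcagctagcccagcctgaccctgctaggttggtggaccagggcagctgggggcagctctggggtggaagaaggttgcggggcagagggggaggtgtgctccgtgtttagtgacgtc
CCAAT stood in the windows of Col1a2, Col5a3 and Col11a1, 3 of 8, against 33.8% of 32851 RefSeq windows of the 250 bases before the start. TATAAA stood in those of Col3a1 and Col11a2 (2 of 8, against 12.4%), the GC box GGGCGG in 6 of 8 (32.7%) and CAGAC, the core of the CAGA element, in 5 of 8 (42.2%), each on either strand; none of these motifs holds another. The palindrome GTCTAGAC was in none of the 8 and in 0.167% of all windows. The window of Col24a1 held none of these 5 motifs. GC content of the 250 bases ran from 35.2% in Col3a1 to 76.4% in Col5a1. Matches of letters in this window are a description and show no binding.

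The chains ran from 0.362 RPKM (Col24a1, Act NS) to 10277 RPKM (Col1a1, Act 5dw). In NS, Col1a1 was highest and was followed by Col3a1 and Col1a2, and the ranges of these 3 overlapped over the 6 NS libraries (2092 to 4709, 1717 to 2995 and 1370 to 2433 RPKM). Col5a1 and Col5a2 came next and also overlapped (168 to 253 and 149 to 214 RPKM), and Col5a3 lay below both at 81.3 to 134 RPKM. Col11a1 (2.96 to 9.93), Col27a1 (1.37 to 1.94), Col11a2 (0.690 to 1.46) and Col24a1 (0.362 to 0.764) were low, and among these only the neighbours Col27a1 and Col11a2, and Col11a2 and Col24a1, overlapped. In 5dw the order of the abundant chains was the same, with Col1a1 and Col3a1 overlapping, while Col24a1 stood at the level of Col27a1 and Col11a1. The gene length behind an RPKM could be recovered from the values for each chain, and for 7 of the 10 it was that of all GENCODE M21 exons merged (not for Col1a2, Col11a1 and Col11a2). For Col1a2 it was 12137 bp, against 5348 bp for its longest coding transcript, and for Col1a1 it was 6563 bp against 5930 bp, so a level of Col1a2 is set low on this scale, and that of Col3a1 too (9816 bp against 5564 bp). Per length of the longest coding transcript the order of these 3 turned, with NS means of 4313 for Col1a2, 4244 for Col3a1 and 3663 for Col1a1 and 5dw means of 13856 for Col3a1, 10075 for Col1a1 and 9169 for Col1a2. An order of levels between genes therefore depends on the length used, while a fold change of 1 gene does not. The reads behind a value were 256098 to 2614118 for Col1a1, 101 to 241 for Col11a2 and 66 to 3082 for Col24a1.

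**Figure D1:**
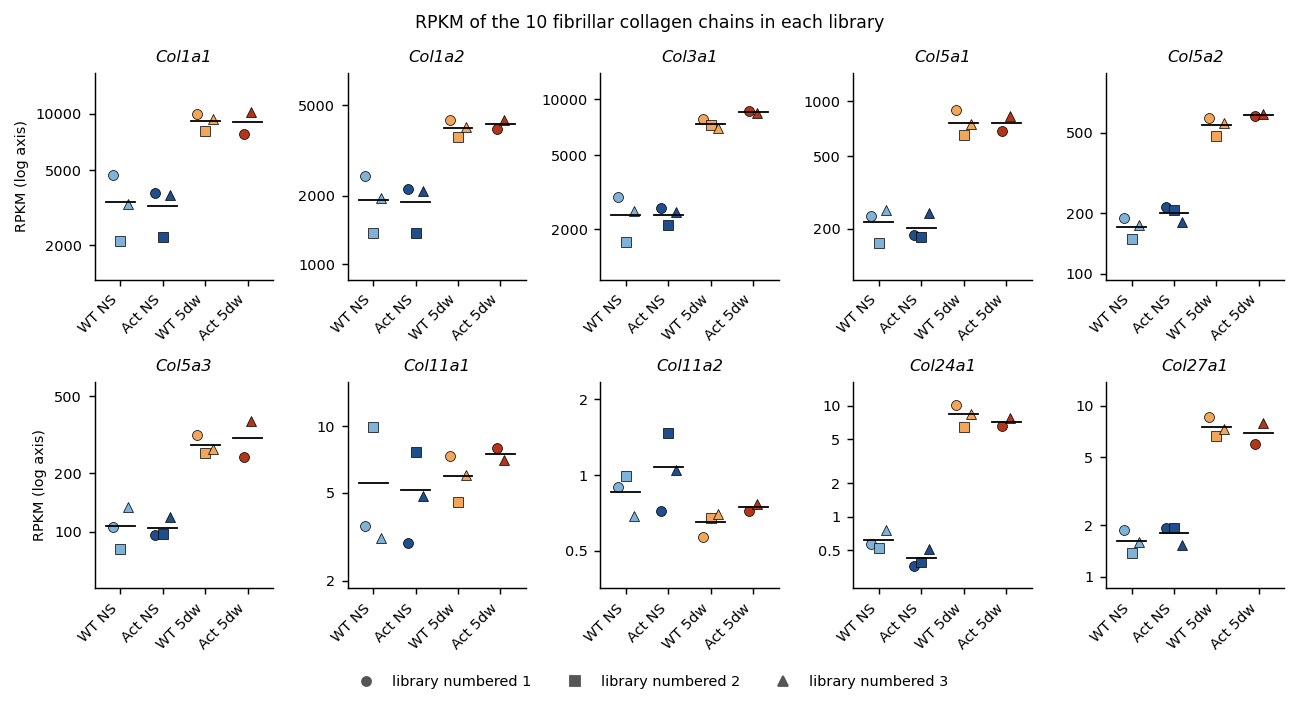
RPKM of each chain (y axis, log scale, own range per panel) in the 11 libraries by group (x axis), where points are libraries, their shape the library number and lines the group means. All 5 5dw libraries lie above all 6 NS libraries for 8 chains, and the groups overlap for Col11a1 and Col11a2. The share of all genes without such an overlap was not computed.

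The labels were checked before the groups were compared. Pdgfra, the gene of the sort marker, was at 49.8 to 65.3 RPKM in NS and 29.6 to 37.3 RPKM in 5dw, while Ptprc, which encodes CD45, was at most 0.0498 RPKM in all 11 libraries. Inhba was at 6.75, 6.93 and 3.40 RPKM in WT NS and at 36.3, 59.1 and 91.1 RPKM in Act NS (log2FC 3.30, limma adjusted p = 0.0128). The call was lost when the library numbered 2 or 3 of WT NS or that numbered 2 of Act NS was left out (limma adjusted p = 0.0696, 0.0805 and 0.0689), without both NS libraries numbered 2 (0.295) and in a fit of the NS groups alone (0.1004), while the Act NS values stayed above all WT NS values. In 5dw Inhba was at 15.8 to 23.98 RPKM for WT and at 26.2 and 50.2 RPKM for Act. The row is that of the murine gene, and mapping of transgene reads to it was not tested. The summed RPKM of 14 keratinocyte markers was 1275 to 4812 in NS and 192 to 528 in 5dw apart from WT 5dw replicate 3 at 1707. That of the 9 leukocyte markers in the data was 15.5 to 47.3 and 67.1 to 119.9, and this difference lay in Cd3e, at 2.94 to 33.9 and 55.5 to 105 RPKM, since the other 8 summed to 9.9 to 16.7 in NS and 11.5 to 17.4 in 5dw. The tissues did not overlap in the sums of 8 fibroblast markers (6339 to 7854 and 3998 to 4556), 7 endothelial markers (6.08 to 11.1 and 16.4 to 18.8) and 6 Schwann cell markers (4.97 to 10.4 and 0.75 to 1.00). Nor did they overlap in that of 6 skeletal muscle markers (2.96 to 6.24 and 1.81 to 2.44). The sum of 10 genes of the dissociation response was 9036 in WT NS replicate 1 and 4896 to 7208 elsewhere. Mapped reads were 18649321 to 29718956 per library in NS, 38740404 to 39702138 in WT 5dw and 20531292 to 25626301 in Act 5dw, and the RNA input was 100 ng in NS and 200 ng in 5dw. Input cannot be told apart from the tissue, and the part of the markers and of depth in the results was not tested. In sorted cells measured in bulk, fewer cells with a transcript and less of it per cell cannot be told apart.

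The first question was how wounding changed the chains in each genotype. In 5dw fibroblasts 8 of the 10 chains rose in WT and the same 8 rose in Act mice: those of type I, type III and type V, Col24a1 and Col27a1. Mean RPKM in 5dw was 15.1 times that of NS for Col24a1 and 2.13 to 4.29 times for the other 7. Of the 8, Col24a1 was tested only through its 5dw libraries, since no NS library reached 1 RPKM, so that it had to differ and its call adds nothing to the count (it was also called with no filter). Col11a2 was tested only through 2 Act NS libraries. Over all 11979 genes tested, 9.45% were called higher in WT 5dw than in WT NS and 9.04% in Act 5dw than in Act NS, and 48.8% and 36.5% were called lower. Under median-ratio scaling the shares were 22.4% higher and 22.2% lower in WT and 19.9% and 20.8% in Act mice, and under quantile normalization 20.4% and 19.4% in WT and 20.1% and 17.2% in Act mice. The median log2FC of the 10 chains was 1.58 in WT and 1.57 in Act, beside -0.40 and -0.31 over all genes. When libraries were scaled by the median of gene ratios, which brings the median of all genes in WT to -0.0043, the median of the chains in WT was 2.04, and under quantile normalization it was 1.34.

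For type I, Col1a1 was at 4709, 2092 and 3327 RPKM in WT NS, at 3801, 2217 and 3709 in Act NS, at 10032, 8091 and 9354 in WT 5dw, while Act 5dw had 7761 and 10277. The library numbered 2 was the lowest of the 3 in both NS groups, and no 5dw library came near the NS range. Its log2FC was 1.51 (SE 0.30, limma adjusted p = 0.00159) in WT and 1.503 (SE 0.33, limma adjusted p = 0.00425) in Act mice. The call in Act mice was lost under quantile normalization (log2FC 0.67, limma adjusted p = 0.0710) and without a filter on low values (limma adjusted p = 0.0863). Col1a2, the partner chain of Col1a1, was at 2433, 1375 and 1966 RPKM in WT NS, 2152, 1370 and 2107 in Act NS, 4321, 3629 and 3998 in WT 5dw, while Act 5dw had 3950 and 4303. It repeated the low values of both NS libraries numbered 2, and its log2FC was 1.08 (SE 0.23, limma adjusted p = 0.00257) in WT and 1.17 in Act mice (SE 0.26, limma adjusted p = 0.00440; 0.0686 without the filter).

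Col3a1, the sole chain of type III, was at 2995, 1717 and 2502 RPKM in WT NS, at 2617, 2114 and 2487 in Act NS, at 7846, 7335 and 7015 in WT 5dw, while Act 5dw had 8652 and 8423. The tissues were far apart, and both Act 5dw libraries lay above the 3 of WT 5dw. The log2FC was 1.66 (SE 0.20, limma adjusted p = 8.02e-05) in WT and 1.83 (SE 0.22, limma adjusted p = 0.000128) in Act mice, the latter 1.23 under quantile normalization. Its rank by mean RPKM among all genes went from 6 in NS to 2 in 5dw.

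The 3 chains of type V rose too. Col5a1, found in nearly all type V molecules, was at 236, 168 and 253 RPKM in WT NS, 184, 181 and 243 in Act NS, 893, 652 and 749 in WT 5dw, while Act 5dw had 685 and 830, and its log2FC was 1.81 (SE 0.20, limma adjusted p = 4.62e-05) in WT and 1.91 (SE 0.22, limma adjusted p = 9.94e-05) in Act mice. Col5a2, its usual partner, was at 189, 149 and 175 RPKM in WT NS, 214, 208 and 181 in Act NS, 594, 482 and 562 in WT 5dw, while Act 5dw had 609 and 619. Its log2FC was 1.67 (SE 0.14, limma adjusted p = 9.08e-06) in WT and 1.61 (SE 0.16, limma adjusted p = 3.66e-05) in Act mice, with the smallest standard errors of the chains. For both genes the NS and the 5dw libraries were far apart. Col5a3, the least common of the 3, was at 106, 81.3 and 134 RPKM in WT NS, 96.5, 97.2 and 119 in Act NS, 317, 253 and 266 in WT 5dw, while Act 5dw had 241 and 370. Its log2FC was 1.40 (SE 0.21, limma adjusted p = 0.000344) in WT and 1.52 (SE 0.24, limma adjusted p = 0.000608) in Act mice, and the 2 Act 5dw libraries were the lowest and the highest of 5dw. By mean RPKM, Col5a1 moved from rank 200 to 36, Col5a2 from 224 to 56 and Col5a3 from 377 to 141.

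By the ratio of mean RPKM over both genotypes, the minor chains Col24a1 and Col27a1 had the largest rises of the 10, while in Act mice the log2FC of Col27a1 was below those of Col5a1 and Col3a1. Col24a1 was at 0.567, 0.528 and 0.764 RPKM in WT NS, 0.362, 0.392 and 0.514 in Act NS, 10.2, 6.47 and 8.46 in WT 5dw, while Act 5dw had 6.51 and 7.71. Even the lowest 5dw library held more than 8 times the highest NS library. The log2FC was 2.97 (SE 0.16, limma adjusted p = 7.97e-07) in WT and 3.04 (SE 0.18, limma adjusted p = 1.99e-06) in Act mice on the log2(RPKM + 0.5) scale, which understates the change of so low a gene (3.71 in WT and 4.08 in Act mice with limma-voom on recovered reads). Col27a1 was at 1.87, 1.37 and 1.59 RPKM in WT NS, 1.94, 1.93 and 1.53 in Act NS, 8.60, 6.70 and 7.34 in WT 5dw, while Act 5dw had 5.98 and 7.91. Here the log2FC was 1.93 (SE 0.15, limma adjusted p = 5.15e-06) in WT and 1.69 (SE 0.17, limma adjusted p = 3.84e-05) in Act mice, and the tissues did not overlap.

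The type XI chains were not called in either genotype. Col11a1 was at 3.53, 9.93 and 3.14 RPKM in WT NS, 2.96, 7.69 and 4.85 in Act NS, 7.36, 4.55 and 6.02 in WT 5dw, while Act 5dw had 7.96 and 7.02. Both NS libraries numbered 2 were as high as the 5dw libraries, in reverse of Col1a1 and Col1a2. Its log2FC was 0.25 (SE 0.39, 95% interval -0.62 to 1.12, limma adjusted p = 0.598) in WT and 0.58 (SE 0.44, limma adjusted p = 0.300) in Act mice. Without those 2 NS libraries, a choice made after seeing the data, Col11a1 was called higher in WT (log2FC 0.73, limma adjusted p = 0.0239) and in Act mice (log2FC 0.89, limma adjusted p = 0.0212). Acan, the cartilage proteoglycan aggrecan, was at 1.01, 6.22 and 0.955 RPKM in WT NS, 0.795, 3.29 and 3.39 in Act NS and at most 0.606 in 5dw, and the summed RPKM of the 7 cartilage and bone markers in the data was 2.18 to 8.06 in NS and 1.64 to 5.06 in 5dw, with Matn1 at 0 in all 5dw libraries. Without Acan the other 6 summed to 1.22 to 1.85 in NS, and to 1.53 and 1.64 in WT 5dw replicates 1 and 2, 3.24 in replicate 3 and 4.45 and 4.5 in Act 5dw, so that the rest of the list did not follow Acan. Their part in the level of Col11a1 was not tested. Col11a2 was at 0.900, 0.989 and 0.690 RPKM in WT NS, 0.722, 1.46 and 1.05 in Act NS, 0.568, 0.676 and 0.702 in WT 5dw, while Act 5dw had 0.720 and 0.771, all near the limit of 1 RPKM of the filter. The log2FC was -0.24 (SE 0.18, limma adjusted p = 0.276) in WT and -0.32 (SE 0.20, limma adjusted p = 0.225) in Act mice, and the direction turned in WT under median-ratio scaling (0.032) and in both genotypes under quantile normalization (0.30 and 0.13). Without Act NS replicate 1, which leaves in that group just the 2 libraries that let Col11a2 pass the filter, it was called lower in Act mice (log2FC -0.49, limma adjusted p = 0.0487; 0.0486 without both NS libraries numbered 1), and this is no support for a change. Without either of those 2 libraries it was not tested.

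**Figure D2:**
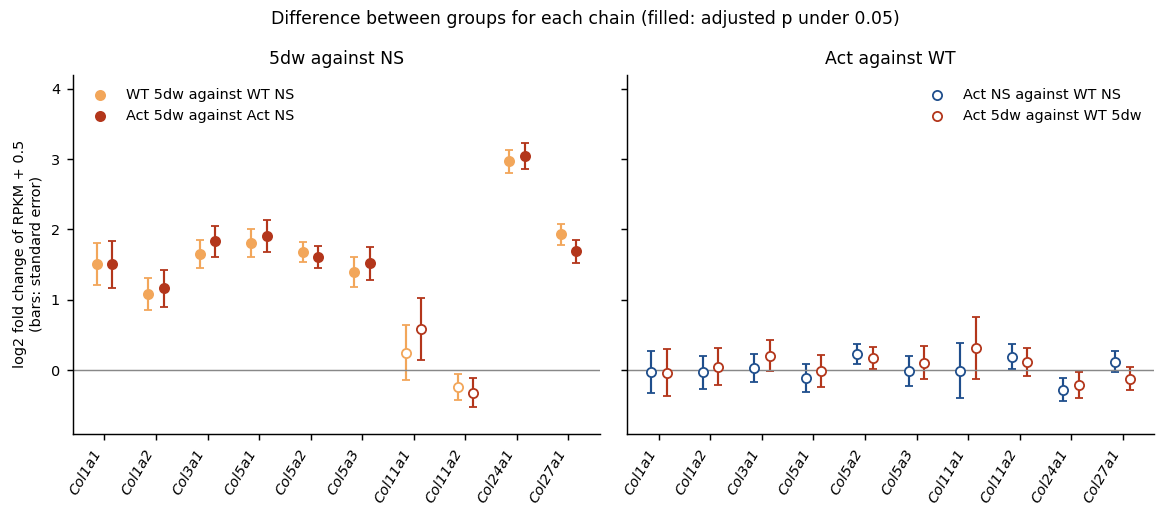
log2 fold change (y axis) of each chain (x axis) between tissues in each genotype (left) and between genotypes in each tissue (right), with the standard error from the limma fit as bars and filled points for an adjusted p under 0.05. In the left panel 8 chains lie between 1.08 and 3.04 and Col11a1 and Col11a2 between -0.32 and 0.58, and in the right panel no point is filled.

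Together the 10 chains took 3.92, 2.01 and 3.09% of the summed RPKM in WT NS and 4.02, 2.25 and 3.24% in Act NS. They took 9.60, 7.97 and 8.66% in WT 5dw, while the Act 5dw libraries gave 9.11 and 10.1%. Every 5dw library was above every NS library, and both NS libraries numbered 2 were the lowest. The difference of 6.07 percentage points (two-sided exact permutation test within genotype, p = 0.005, the smallest that 200 arrangements allow) was 6.79 points when mitochondrial, ribosomal protein and keratinocyte genes were left out of the sum. Between Act and WT the difference was 0.50 points (exact permutation test within tissue, p = 0.34). In NS the Act library was above the WT library of the same number each time. In 5dw it was below for number 1 and above for number 3, and same-numbered pairs were not tested. The makeup of this sum is given without a test. Type I chains made up 62.0 to 66.9% of the summed RPKM of the 10 chains in WT NS and 57.3 to 60.8% in WT 5dw, and 57.9 to 65.7% and 53.4 to 58.7% in Act mice, where the tissues overlapped. Col3a1 made up 28.1 to 30.7% and 31.9 to 35.8% in WT and 28.1 to 34.1% and 33.9 to 39.5% in Act mice, again with an overlap in Act mice. Type V chains made up 4.97 to 7.84% in NS and 6.78 to 7.51% in 5dw.

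**Figure D3:**
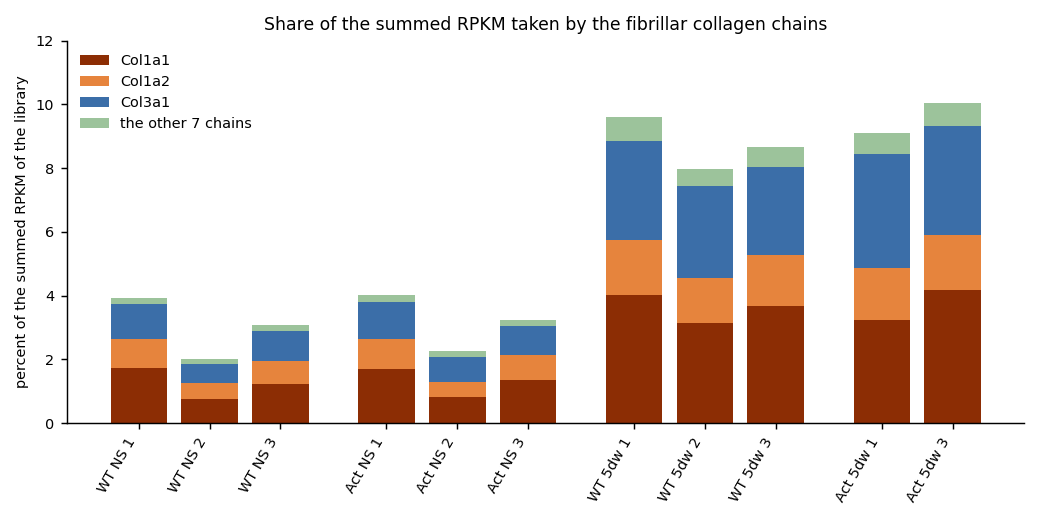
Percent of the summed RPKM of each library (y axis) taken by Col1a1, Col1a2, Col3a1 and the other 7 chains (stacked bars) in the 11 libraries (x axis, group and library number). The bars reach 2.01 to 4.02% in NS and 7.97 to 10.1% in 5dw, and Col1a1 and Col3a1 make up most of each.

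Apart from the 0.5 added to both values for the test, a ratio of chains within a library does not depend on how libraries are scaled to each other, and 7 ratios were compared. The ratio of Col1a1 to Col1a2 was 1.94, 1.52 and 1.69 in WT NS and 1.77, 1.62 and 1.76 in Act NS, and it was 2.32, 2.23 and 2.34 in WT 5dw, while Act 5dw had 1.96 and 2.39. The tissues did not overlap, with the nearest libraries at 1.94 and 1.96. The mean difference in log2 ratio was 0.38, a 1.30-fold rise (two-sided exact permutation test, p = 0.005, adjusted over the 7 ratios 0.0175). Per length of the longest coding transcript of each gene the ratio was 0.742 to 0.944 in NS and 0.958 to 1.16 in 5dw, so the ratio itself depends on the length used while its change does not.

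Within type V, the ratio of Col5a3 to Col5a1 was 0.449, 0.484 and 0.530 in WT NS and 0.524, 0.538 and 0.492 in Act NS, and 0.355, 0.388 and 0.354 in WT 5dw, while Act 5dw had 0.352 and 0.446. It fell by 0.40 on the log2 scale in 5dw, again without overlap, though Act 5dw replicate 3 at 0.446 came close to WT NS replicate 1 at 0.449 (exact permutation test, p = 0.005, adjusted 0.0175). Col5a1 to Col5a2 was 0.861 to 1.45 in NS and 1.12 to 1.502 in 5dw, a log2 difference of 0.22 (exact permutation p = 0.205, adjusted 0.287). The 2 libraries of Act NS numbered 1 and 2, at 0.861 and 0.869, were the only ones in which the RPKM of Col5a2 exceeded that of Col5a1, whereas per longest coding transcript Col5a2 was the higher in 9 of 11 libraries. When any 1 of the 3 Act NS libraries was left out, Col1a1 to Col1a2 (0.36 to 0.39) and Col5a3 to Col5a1 (-0.42 to -0.39) were no longer called (exact permutation test, adjusted p = 0.0583, the smallest that 2 ratios together could then reach).

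For type XI, Col11a1 to Col11a2 was 3.93, 10.0 and 4.55 in WT NS, 4.09, 5.25 and 4.61 in Act NS, 13.0, 6.72 and 8.57 in WT 5dw, while Act 5dw had 11.1 and 9.10. WT NS replicate 2 was the only NS library inside the 5dw range. The log2 difference of 0.69 was not called (exact permutation p = 0.035, adjusted 0.0817). It was called without WT NS replicate 2 (0.90, exact permutation test, adjusted p = 0.0233) and when limma over the 7 ratios took the place of the exact test, without the replicate number as a block (0.69, limma adjusted p = 0.0344, chosen after seeing the data) and with it (0.75, limma adjusted p = 0.0259). Between types, Col3a1 to Col1a1 was 0.636 to 0.954 in NS and 0.750 to 1.11 in 5dw (log2 difference 0.24, exact permutation p = 0.155, adjusted 0.271). In RPKM Col1a1 exceeded Col3a1 in 10 of the 11 libraries, with Act 5dw replicate 1 as the exception, whereas per longest coding transcript Col3a1 was the higher in all 11 (ratio 1.01 to 1.52 in NS and 1.2 to 1.78 in 5dw). The convergent neighbours Col5a2 and Col3a1 had a ratio of 0.0631 to 0.0983 in NS and 0.0657 to 0.0801 in 5dw (log2 difference -0.10, exact permutation p = 0.41, adjusted 0.478). Col5a2 to Col1a1 was 0.0401 to 0.0938 in NS and 0.0593 to 0.0785 in 5dw, and in the 3 WT 5dw libraries it was 0.0593, 0.0596 and 0.0601 (log2 difference between the tissues 0.14, exact permutation p = 0.55, adjusted 0.55). Without both NS libraries numbered 2 this difference was 0.38 and was called (exact permutation test, adjusted p = 0.0389), again a choice made after seeing the data.

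**Figure D4:**
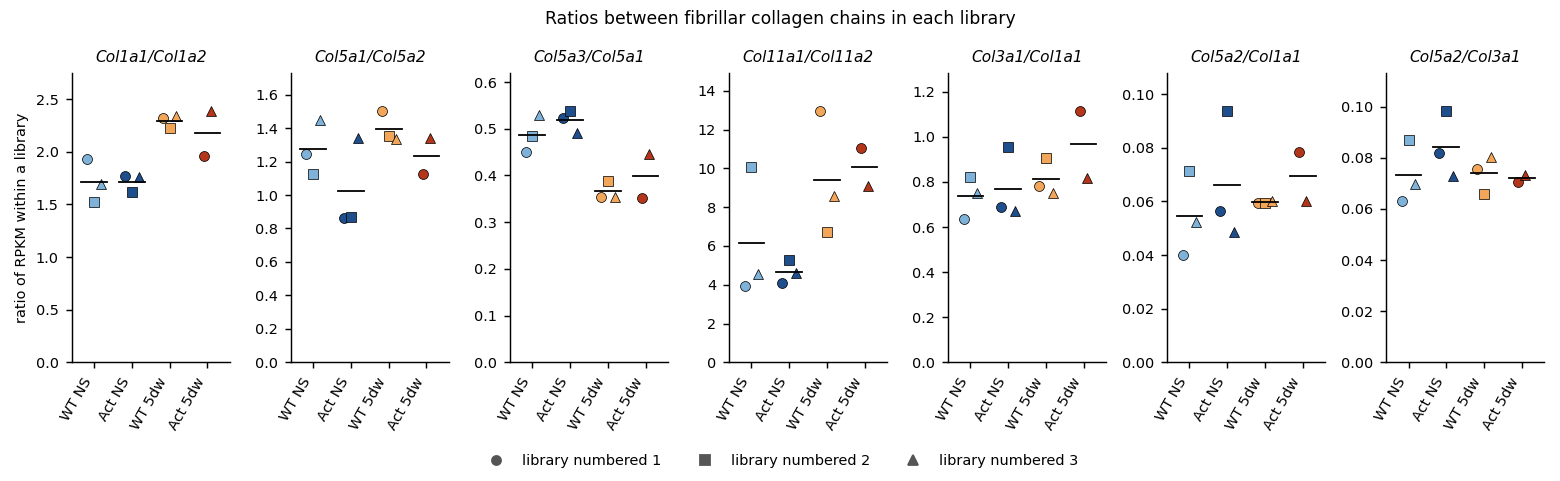
Ratio of RPKM between 2 chains (y axis, linear from 0) in each library by group (x axis), for 7 pairs of chains, where points are libraries, their shape the library number and lines the group means. The tissues are apart for Col1a1/Col1a2, at 1.52 to 1.94 against 1.96 to 2.39, and for Col5a3/Col5a1, at 0.449 to 0.538 against 0.352 to 0.446.

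The second question was whether the activin transgene changed the chains. None of the 10 was called in Act NS against WT NS, in Act 5dw against WT 5dw or in the interaction of wounding and genotype by limma, and none had an unadjusted p under 0.05. Of all 11979 genes, 0.0167%, 0.0334% and 0% were called (2, 4 and 0 genes), and 824, 386 and 400 had an unadjusted p under 0.05. In NS the log2FC of Col1a1 was -0.023 (95% interval -0.68 to 0.63, limma adjusted p = 0.984), and the values farthest from 0 were 0.24 for Col5a2 (95% interval -0.076 to 0.55, limma adjusted p = 0.703) and -0.28 for Col24a1 (95% interval -0.64 to 0.087, limma adjusted p = 0.703). All 3 Act NS libraries were below the 3 WT NS libraries for Col24a1, and in both same-numbered pairs of 5dw Act was below WT too. Col24a1 was not called with the replicate block in NS or 5dw. For Col5a2 the NS groups overlapped, although in each of the 3 same-numbered pairs of NS libraries, and in both of 5dw, Act was above WT. With the replicate block Col5a2 was not called in NS or 5dw (limma adjusted p = 0.599 and 1).

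In 5dw the log2FC of Col1a1 was -0.031 (95% interval -0.77 to 0.70, limma adjusted p = 1). That of Col3a1 was 0.21 (95% interval -0.28 to 0.70) and that of Col5a2 0.17 (95% interval -0.17 to 0.52), and for both chains the 2 Act 5dw libraries lay above the 3 of WT 5dw. Col11a1 was at 0.32 (95% interval -0.65 to 1.29) and Col24a1 at -0.21 (95% interval -0.61 to 0.20). All 4 had a limma adjusted p of 1. The median log2FC of the 10 chains was -0.0097 in NS and 0.081 in 5dw, beside -0.107 and -0.0375 over all genes. Both chain medians turned with 1 library left out, at -0.194 to 0.185 in NS and -0.0769 to 0.16 in 5dw. The NS median was 0.123 with median-ratio scaling, and the 5dw median was -0.0512 with the replicate block. The 7 chain ratios between Act and WT had exact permutation p from 0.09 to 0.99 and adjusted p from 0.542 to 0.99. The lowest belonged to Col5a1 to Col5a2, with a log2 difference of -0.26, at 1.27 ± 0.16 (SD, n = 3) in WT NS against 1.02 ± 0.28 (n = 3) in Act NS. The 5dw values were 1.40 ± 0.093 (n = 3) for WT and 1.23 ± 0.15 (n = 2) for Act.

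The genes whose pattern over the 11 libraries was most like a chain were found by the root mean square difference of log2(RPKM + 0.5) after each gene's mean was taken off, which describes these libraries and carries no test. For Col1a1 they were Sparc, a collagen-binding matricellular protein (0.153), Ccbe1 (0.175) and Col1a2 (0.221), with Col3a1 at rank 4 of 11978 genes. For Col3a1 they were Sparc (0.164), Col5a2 (0.177) and Bgn, the fibril-binding proteoglycan biglycan (0.179). Those of Col5a1 were Fkbp10, a collagen chaperone (0.133), Arxes2 (0.152) and Rasl12 (0.165). Col1a1 was nearer to Col3a1 (0.227), Col5a3 (0.274), Col5a1 (0.291), Col5a2 (0.316) and Col27a1 (0.332) than to Col24a1 (0.824), Col11a1 (0.941) and Col11a2 (1.01). All these values come from the same 6 NS and 5 5dw libraries, and genes with a like tissue difference score as near. With each group's mean taken off instead, Col1a2 was at rank 5 and Col3a1 at rank 162 for Col1a1, and Col5a2 at rank 1378 for Col3a1, and none of the genes nearest to Col1a1, Col3a1 or Col5a1 above was among the nearest 3.

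The chains are modified, cut, linked and degraded by other proteins, and 6 lists of such genes are described here by their counts, with no test of a list or between lists. The counts stand beside 9.45% of all genes higher and 48.8% lower in WT, and 9.04% and 36.5% in Act mice. Of 17 tested genes for hydroxylation, glycosylation and folding of chains, 15 rose and 1 fell in WT and in Act mice, also under median-ratio scaling and quantile normalization. A filter of 5 RPKM left 15 genes, of which 15 rose and 0 fell in both genotypes. With 1 library left out 14 or 15 rose and 1 fell in WT and 12 to 15 rose and 1 or 2 fell in Act mice, and with the replicate block 15 and 1 in WT and 14 and 2 in Act mice. P4ha3, a subunit of collagen prolyl hydroxylase, went from 4.48 ± 1.85 RPKM (SD, n = 3) in WT NS to 43.0 ± 6.91 in WT 5dw (log2FC 3.18, limma adjusted p = 1.32e-05). Colgalt2, a collagen galactosyltransferase, went from 2.52 ± 0.311 to 0.585 ± 0.0092 RPKM (log2FC -1.47, limma adjusted p = 8.13e-06). With limma-voom its log2FC was -2.10. Colgalt2 was the 1 gene of the list that fell in both genotypes. No 5dw library reached 1 RPKM (at most 0.901), so that it was tested only through its NS libraries. Its fall was therefore built in and adds nothing to the count (in WT it was also called with no filter). The median log2FC of this list was 0.94 in WT, beside -0.40 over all genes.

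Of 8 tested genes for propeptide cleavage, 4 rose and 2 fell in WT and 3 rose and 2 fell in Act mice. Without WT 5dw replicate 1, 2 rose and 2 fell of the 7 then tested in both genotypes, and without Act 5dw replicate 3, 3 rose and 2 fell in WT and 2 rose and 3 fell in Act mice, again of 7. Bmp1, the protease that removes the C-terminal propeptide, went from 143 ± 23.6 to 325 ± 22.4 RPKM in WT (log2FC 1.19, limma adjusted p = 0.000121), while Pcolce2, an enhancer of that cleavage, went from 91.5 ± 10.1 to 4.69 ± 1.75 RPKM (log2FC -4.19, limma adjusted p = 5.2e-07). Of the 5 lysyl oxidases that cross-link the fibril, 3 rose and 1 fell in both genotypes, whichever 1 library was left out. Lox rose from 92.6 ± 6.46 to 457 ± 52.3 RPKM (log2FC 2.29, limma adjusted p = 1.23e-06) and Loxl4 fell from 22.3 ± 2.38 to 4.09 ± 0.276 RPKM (log2FC -2.31, limma adjusted p = 1e-06).

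Of 13 partners on the fibril surface, 5 rose and 4 fell in WT and 5 rose and 3 fell in Act mice. With 1 library left out 4 or 5 rose and 4 or 5 fell in WT and 4 to 7 rose and 2 or 3 fell in Act mice. Col12a1, a fibril-associated collagen, was at 8.31 ± 0.772 RPKM in WT NS and 189 ± 44.0 in WT 5dw (log2FC 4.40, limma adjusted p = 3.47e-07), and Ogn, the proteoglycan osteoglycin, at 381 ± 72.7 and 161 ± 25.8 RPKM (log2FC -1.24, limma adjusted p = 0.0012). Of 9 genes for collagen cleavage and uptake, 5 rose and 2 fell in both genotypes, and 4 to 6 rose and 2 fell with 1 library left out. Under median-ratio scaling the fibril surface genes were 6 higher and 3 lower in WT and 8 higher and 2 lower in Act mice, and under quantile normalization 4 and 3 in WT and 6 and 3 in Act mice, while for cleavage and uptake 6 rose and 2 fell in both genotypes under the first and 5 and 2 under the second. The gelatinase Mmp9 was at 1.27 ± 1.92 RPKM in WT NS and 19.1 ± 4.65 in WT 5dw (log2FC 4.00, limma adjusted p = 0.000247), and the log2FC was 4.86 without WT NS replicate 1, 4.92 with a pseudocount of 0.1 and 5.42 with limma-voom on recovered reads. Timp3, an inhibitor of metalloproteinases, was at 168 ± 65.3 and 24.6 ± 6.77 RPKM (log2FC -2.71, limma adjusted p = 7.67e-05).

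The 7 tested genes for proteins that act on collagen genes or their mRNA included 5 that fell and 0 that rose in WT and 4 that fell and 0 that rose in Act mice (5 in WT and 3 or 4 in Act mice with 1 library left out), where 48.8% and 36.5% of all genes fell in the same fit. Under median-ratio scaling 2 rose and 3 fell in WT and 2 rose and 2 fell in Act mice, and under quantile normalization 0 rose and 3 fell in WT and 1 rose and 2 fell in Act mice, where 17.2 to 22.4% of all genes were called in each direction under these scalings. Larp6, which binds the 5′ end of type I collagen mRNAs, was at 19.3 ± 0.849 RPKM in WT NS and 2.96 ± 0.386 in WT 5dw (log2FC -2.52, limma adjusted p = 5.65e-07). Nfyc, a subunit of the CCAAT-binding factor, was at 11.6 ± 0.521 and 7.81 ± 0.349 RPKM (log2FC -0.54, limma adjusted p = 0.00154), a call lost under median-ratio scaling (log2FC -0.10, limma adjusted p = 0.419) and under quantile normalization (log2FC -0.18, limma adjusted p = 0.166). In none of the 6 lists was a gene called by limma between the genotypes in NS or 5dw.

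**Figure D5:**
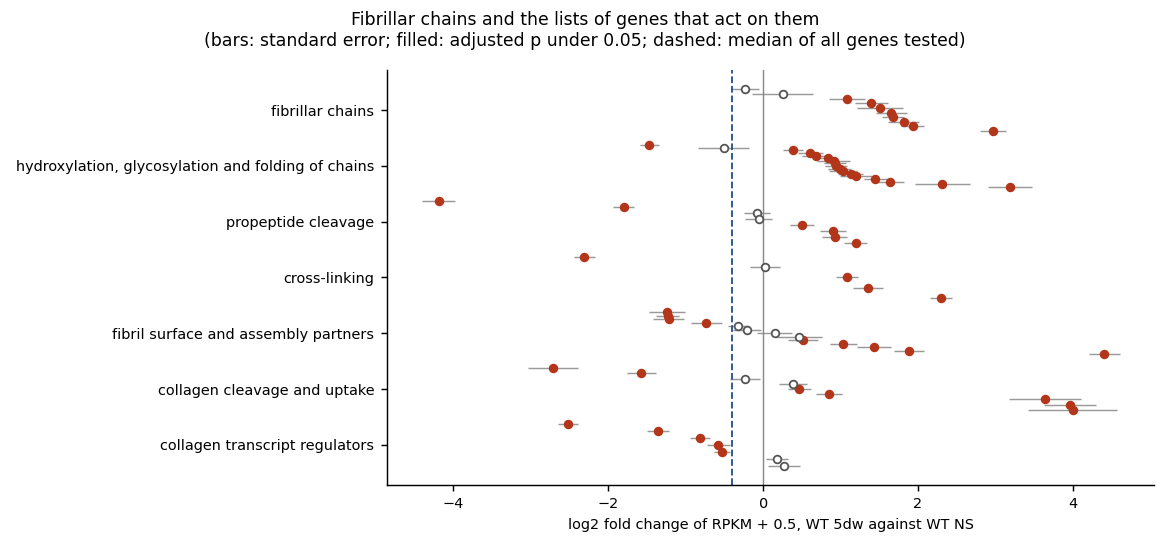
log2 fold change between WT 5dw and WT NS (x axis) of the 10 fibrillar chains and of each tested gene of the 6 lists (rows), with the standard error from the limma fit as bars, filled points for an adjusted p under 0.05 and a dashed line at the median of all genes tested, -0.40. Genes for hydroxylation and folding lie mostly to the right with the chains, and the transcript regulators mostly to the left.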

How the data were processed

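The authors sequenced poly-A RNA of sorted fibroblasts as 100 bp reads, aligned it to GRCm38 in CLC Genomics Workbench and deposited RPKM values per gene symbol, which are scaled to gene length and mapped reads but to nothing else between libraries. Their edgeR exact test takes counts and was not run on these values. Strand and multi-mapping settings of the counting are not given in the sources used here. An Act 5dw library, numbered 2, was excluded by the authors after quality control and is not analysed here.

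Genes with at least 1 RPKM in at least 2 libraries (11979 genes, all 10 chains included) were fitted as log2(RPKM + 0.5) with limma-trend (limma 3.58.1 in R 4.3.3), with 1 mean for each of the 4 groups over 11 libraries, 7 residual degrees of freedom and a prior of 3.89, and Benjamini-Hochberg adjustment ran per comparison over all genes tested. Calls have an adjusted p under 0.05. Chain ratios were compared as log2 with the same 0.5 added, and the share of summed RPKM as percentage points, by two-sided exact permutation tests over libraries within genotype or within tissue (200 arrangements, computed in Python 3.11.15), adjusted over the 7 ratios of a contrast. Mapped totals, the chains' gene lengths and their reads were recovered from the RPKM values as those that give whole reads within 0.03; with GENCODE M21 lengths, 71.42 to 71.94% of the values above 0 of a library came out whole. Both tests were tried on simulated data.

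The members, the gene lists, the ratios and the alternatives were chosen with earlier results of these data known. Named genes were the 10 chains, the called gene with the largest and the one with the smallest log2FC in WT of each list, the 3 genes most like Col1a1, Col3a1 and Col5a1, and Pdgfra and Inhba. Acan, Matn1, Ptprc and Cd3e were named from the marker lists after their values were seen, and Col2a1 was named as a chain left out of the 10. Libraries carry replicate numbers in the labels. Deviations from the group mean of same-numbered libraries correlated at 0.554, 0.423 and 0.334 between WT NS and Act NS. They correlated at 0.188, 0.12 and 0.109 between WT NS and WT 5dw, and at 0.222, 0.195 and 0.263 between Act NS and WT 5dw. Pairs with Act 5dw, of which there are 2 each, ranged from -0.124 to 0.189. Differently numbered libraries were not correlated, so whether the numbers pair the groups was not tested. The main fit and the exact tests do not use the numbers.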

Additional observations from a re-analysis of the deposited data

How the results depend on the processing

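The counts of chains called in either direction were 8 or 9 in WT 5dw against WT NS and 6 to 9 in Act 5dw against Act NS over 22 alternatives (21 for the interaction), and 0 chains were called between genotypes or in the interaction under any of them. The alternatives were a pseudocount of 0.1 or 1, no filter or one of 5 RPKM, median-ratio scaling, quantile normalization, a replicate block, a fit of only the groups compared, limma-voom on recovered reads, each library left out in turn, and both NS libraries numbered 1, or, chosen after seeing the data, numbered 2, left out. Rises of the 8 chains in WT kept their direction and their call under all of these. With the replicate block, 8, 8, 0, 0 and 0 chains were called in the 5 comparisons. For the ratios the block was fitted by limma in place of the exact test. Col11a1 to Col11a2 between the tissues was then called both with the block (0.75) and without it (0.69, added after seeing the data), so the change of test and not the block moved this call. The block changed no other call of a chain, ratio or partner named here. Leaving out 1 library each gave log2 differences of 0.31 to 0.45 for Col1a1 to Col1a2, -0.49 to -0.31 for Col5a3 to Col5a1 and 0.58 to 0.90 for Col11a1 to Col11a2 between the tissues, and of -0.11 to 0.030 for Col1a1 to Col1a2 and -0.11 to 0.21 for Col11a1 to Col11a2 between the genotypes. Without both NS libraries numbered 1, fewer arrangements ended the calls of Col1a1 to Col1a2 (0.44) and Col5a3 to Col5a1 (-0.42) between the tissues at an adjusted p of 0.0583, the smallest then possible for 2 ratios, and the direction turned for Col5a2 to Col1a1 between the tissues (-0.0093) and for Col11a1 to Col11a2 between the genotypes (-0.041). That last ratio also turned with a pseudocount of 0.1 (-0.049). Without both NS libraries numbered 2, Col5a2 to Col1a1 was called (0.38) and Col5a2 to Col3a1 turned (0.022). The cause was not tested. Between the genotypes, single log2FC were followed over the alternatives only for Col1a1, Col5a2 and Col24a1 in NS and for Col1a1, Col3a1, Col5a2, Col11a1 and Col24a1 in 5dw. Whether those of the other chains turned was not examined. Uncalled log2FC that turned were those of Col1a1 in Act NS against WT NS (0.12 with median-ratio scaling, 0.33 with quantile normalization, 0.12 without both NS libraries numbered 1, -0.33 to 0.26 with 1 library left out) and in Act 5dw against WT 5dw (0.011 with median-ratio scaling, -0.23 to 0.17 with 1 library left out), of Col11a1 in WT (-0.026 to 0.73 with 1 library left out) and of Col11a2 (0.032 and 0.30 in WT with median-ratio scaling and quantile normalization, 0.13 in Act mice with quantile normalization). The fewest reads stood behind Col11a2, with at most 241 per library, and Col24a1 in NS, with as few as 66, and whether depth limited their results was not tested. With the replicate block the partner lists differed from the counts without it in hydroxylation and folding in Act mice and in cleavage and uptake in WT (6 higher and 2 lower of 9).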
